A study of Mus musculus with 8 samples.

Results

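The 35 genes described here encode enzymes that make amino acids, transporters that carry them into cells, and the aminoacyl-tRNA synthetases that load them onto transfer RNA. They were taken by symbol from a gene count table of 30660 Ensembl identifiers, and all 35 were found and had enough reads to be tested. By role they are 7 enzymes of serine, glycine and one-carbon metabolism, 7 enzymes of proline, asparagine, alanine, aspartate and cysteine metabolism, 8 transporters and 13 synthetases. The RNA came from vascular smooth muscle cells (VSMCs) of mice in primary culture, the contractile cells of the middle layer of the vessel wall. The 4 control libraries carry the label WT for genotype and treatment, and the 4 other libraries carry the label Sox6 knockdown. Titles of the knockdown libraries begin with sisox6 and those of the controls with nc, and neither is spelled out. Vessel, strain, age, dose and time are not stated in the labels, nor whether replicates were independent cultures, and a p-value therefore speaks only of variation among these libraries, which may be technical. Sox6 encodes a SoxD transcription factor, and the title of the study concerns its effect on the phenotype of these cells, on autophagy and on blood pressure.

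Cells make serine from a glycolytic intermediate, and serine hydroxymethyltransferase turns it into glycine while passing a carbon unit to folate for nucleotide synthesis. Smooth muscle cells also need glycine and proline in bulk, because collagen is rich in both. When amino acids run short, uncharged transfer RNA activates a kinase that slows translation and raises the transcription factor ATF4, which is known to switch on many synthesis enzymes, transporters and synthetases through an element in their promoters. Cells that divide or build matrix are known to use this same set heavily.

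That element, the amino acid response element, has the core TGATGNAA on either strand. RefSeq promoter sequences (GRCm38.p6, 250 bases before to 50 after an annotated start) were held for 25 of the 35 genes, and 9 of the 25, or 36%, contained the core. Among all 32851 promoters of the same length 3.97% contained it, or 4.51% of the 27025 genes with an entry. The 9 genes are shown because they share this sequence, each by the match nearest its start as 30 bases read along the gene, 5′ to 3′, with the core in capitals; where the core is on the other strand, the capitals are its reverse complement.
Asns, chr6:7693214-7693243, minus strand: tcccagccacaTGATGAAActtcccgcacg
Pycr1, chr11:120643833-120643862, minus strand: tgccctgtgtaTGATGCAAtgcacaaggct
Yars, chr4:129189895-129189924, plus strand: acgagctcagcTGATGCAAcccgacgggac
Got1, chr19:43524689-43524718, minus strand: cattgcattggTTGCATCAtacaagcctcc
Slc1a4, chr11:20332699-20332728, minus strand: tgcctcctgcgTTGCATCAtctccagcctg
Iars, chr13:49682126-49682155, plus strand: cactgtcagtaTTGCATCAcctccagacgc
Tars, chr15:11399655-11399684, minus strand: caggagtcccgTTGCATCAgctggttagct
Gars, chr6:55037960-55037989, plus strand: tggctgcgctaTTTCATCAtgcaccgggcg
Aars, chr8:111033840-111033869, plus strand: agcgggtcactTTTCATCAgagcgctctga

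Of these 9 matches, 7 began between 30 bases before and 9 bases after the annotated start, and those of Got1 and Pycr1 began 102 and 103 bases before it. Synthetases made up 5 of the 9 genes. None of the serine, glycine and one-carbon genes had a match in this window, which says only that these letters are not there. A match is a description of sequence and not a measured binding site.

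**Figure D1:**
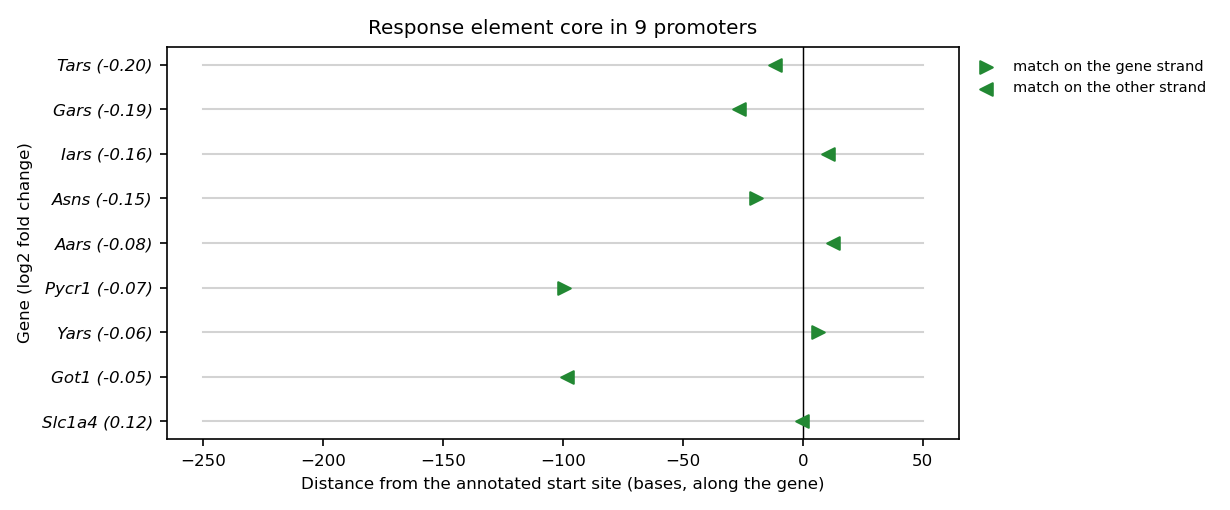
Position of the match to the response element core nearest the start in the promoters of the 9 genes that have one, in bases from the annotated start site, with the log2 fold change of each gene (knockdown minus control) beside its symbol. Arrowheads show the strand of the match. Of the 9 matches shown, 7 begin between -30 and 9, and the log2 fold changes of the 9 genes run from -0.20 to 0.12.

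The libraries held 37604102 to 49393224 counts each. Sox6 itself was near the floor, with 6, 10, 6 and 4 counts in the controls and 2, 4, 0 and 0 in the knockdowns (0.144 ± 0.0527 and 0.0318 ± 0.0394 CPM of total counts, SD, n = 4 each, exact two-sided permutation p = 0.0286, the smallest that 4 against 4 can give). Of 8 smooth muscle markers 4 fell, none rose and 1 was too low to test (summed 1130 to 1420 CPM over the controls and 887 to 1130 CPM over the knockdowns). Acta2, a contractile actin, made up most of that sum, while Tagln, a defining marker, had 20 and 38 counts over the groups, and Myh11 had 1018 and 1319. Of Tagln exon length 67.9% is shared with other genes. How reads in shared exons were counted is not given, so the low Tagln count may not reflect its level. Markers of heart muscle were present and all 8 of 8 fell, from a summed 258 to 366 CPM over the control libraries to 25.9 to 98.4 CPM over the knockdowns. Of 8 endothelial markers 5 fell, 1 rose and 2 were too low to test (summed 9.96 to 12.1 and 5.04 to 6.82 CPM). Of 8 mesothelial and epithelial markers 5 fell and none rose (summed 246 to 271 and 141 to 159 CPM), and of 8 fibroblast markers 3 fell and 2 rose (summed 4570 to 4880 and 3360 to 3730 CPM). Most of the fibroblast sum was Col1a1 (mean 1940 and 1530 CPM) and Col1a2 (2340 and 1550 CPM), which fell, as did Dpt. Pdgfra (38.6 and 78.3 CPM) and Pi16 (0.708 and 1.5 CPM) rose, and Dcn, Lum and Cd34 were not called. Of 8 macrophage and leukocyte markers 1 rose, 1 fell and 4 were too low to test (summed 62.0 to 68.5 and 58.8 to 63.7 CPM). Csf1r had 5563 and 5496 counts over the groups and Cd14 had 5070 and 4707. Adgre1 had 4 and 4 counts and Itgam 2 and 4. No marker of these lists was at 0 in both groups. Such calls were common, since 51.5% of the genes tested in these data were called. Fallers made up 26% of all tested genes and risers 25.4%. Among tested markers the share called was 57.1% for smooth muscle, 62.5% for fibroblasts and 50% for macrophages and leukocytes, not far from that background. The same holds for the 62.5% of mesothelial and epithelial markers, though all of those calls, like those of smooth muscle, were falls. The share was 100% for heart muscle and for endothelial markers. Whether these calls reflect a shift in cell types, and the part of these cell types in the changes below, was not tested. In bulk RNA, fewer cells of a type and less RNA per cell cannot be told apart.

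In the Sox6 knockdown libraries more of these genes were lower than higher, mostly by small amounts. Relative to control, 17 of the 35 fell, 4 rose and 14 did not pass an edgeR adjusted p of 0.05. Over all 16150 tested genes 51.5% passed, 25.4% higher and 26% lower, so the 60% of the members that passed is close to the background, and the fallers, at 17 of 35, stand beside a background of 26%. No member changed by 2 fold, and 20 of the 21 called changes were under 1.5 fold. The median log2 fold change (knockdown minus control) was -0.11 over the members and 0.02 over all tested genes. The 4 knockdown values lay wholly below the 4 controls in 17 members and wholly above in 5, 22 of 35 in all. Among all tested genes 46.9% had groups that did not overlap, 24% lower and 22.8% higher.

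These differences are small enough for the choice of scaling to matter. Abundances are given as CPM (counts per scaled library, brought to a common size) with libraries scaled by TMM, which takes most genes as unchanged. With scaling to total counts instead, every gene moved up by 0.10 on the log2 scale, the median of all tested genes went from 0.02 to 0.12, and the members split into 9 higher and 11 lower, beside a background of 36.7% higher and 18.9% lower over all tested genes. Under both scalings 11 members were called lower and 4 higher, and none was called with opposite signs. The 6 calls lost were those of Asns, Slc7a5, Slc3a2, Gars, Iars and Wars, and the 5 gained, all higher, were those of Psph, Slc38a2, Cars, Lars and Nars.

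**Figure D2:**
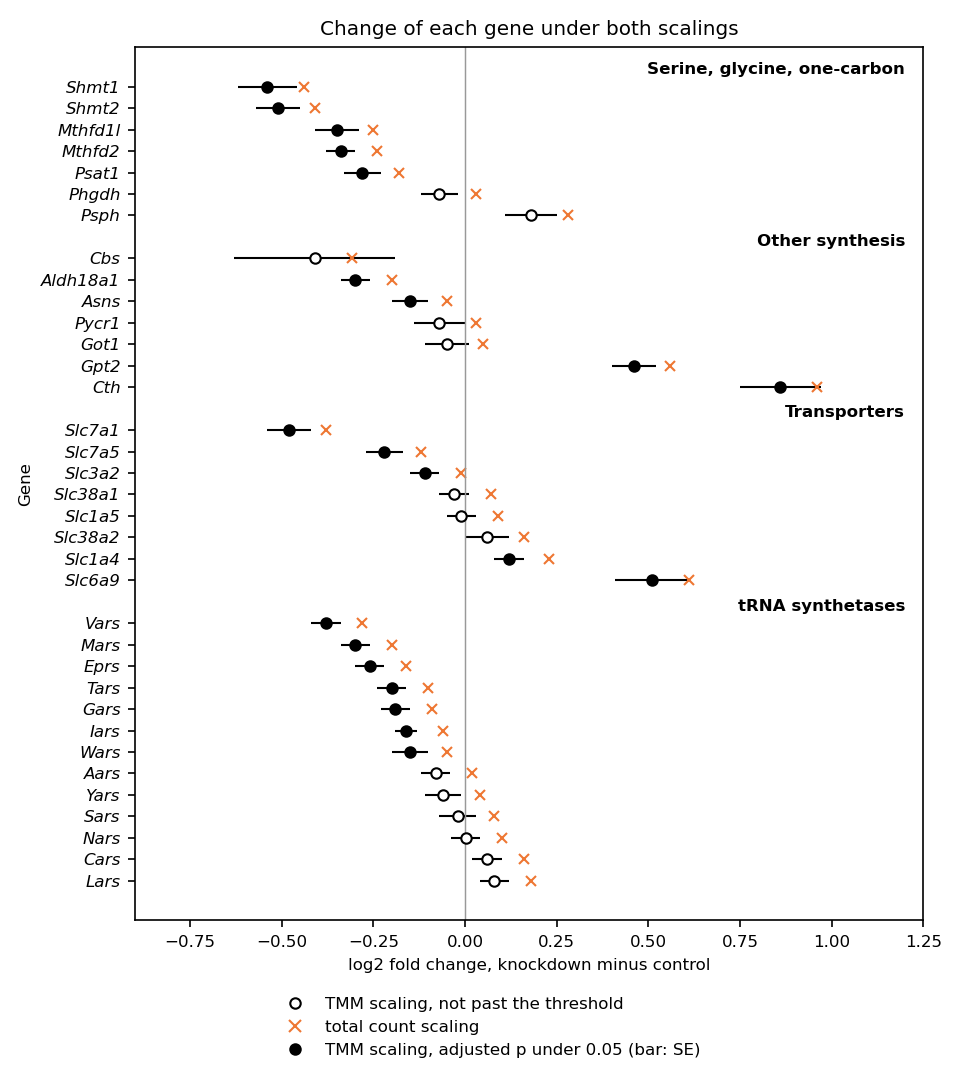
Log2 fold change of the 35 genes, knockdown minus control, by role. Circles and bars give the TMM-scaled estimate and its SE (filled where the edgeR adjusted p is under 0.05), crosses give the estimate with total count scaling, which lies 0.10 to the right for each gene. Under TMM scaling 17 genes are called lower and 4 higher, and under total count scaling 11 lower and 9 higher.

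Most of the one-carbon enzymes were lower in the knockdowns. Of the 7 genes of serine, glycine and one-carbon metabolism 5 fell, in the main test and under each of the 18 alternatives, and none rose in the edgeR test (none with DESeq2 or limma-voom either, and 1, Psph, at an unadjusted p under 0.05). The share called was 71.4%, all lower, where over all tested genes 51.5% were called and 26% were lower. The median log2 fold change was -0.34, and -0.24 with total count scaling. The 2 serine hydroxymethyltransferases fell by nearly the same amount. Shmt2, the mitochondrial enzyme, had 263, 286, 269 and 253 CPM in the controls and 198, 173, 204 and 175 CPM in the knockdowns. The 2 groups did not overlap (268 ± 14.1 and 188 ± 15.7 CPM, SD, n = 4 each), a log2 fold change of -0.51 ± 0.06 SE (edgeR adjusted p = 3.73e-06). Shmt1, the cytosolic enzyme, had 28.7, 27.0, 33.5 and 28.6 CPM in the controls and 18.0, 20.3, 22.5 and 20.1 CPM in the knockdowns. Again each knockdown library was below each control, by -0.54 ± 0.08 on the log2 scale (adjusted p = 4.8e-05), with control replicate 3 the highest library. Of Shmt1 exon length 4.74% is shared with Smcr8 on the other strand.

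Mthfd2 and Mthfd1l, which carry the folate-bound carbon unit from its mitochondrial form to formate, fell as well. Mthfd2 had 79.9, 77.3, 84.3 and 82.6 CPM in the controls and 65.1, 65.4, 62.6 and 63.3 CPM in the knockdowns (log2 fold change -0.34 ± 0.04, adjusted p = 1.13e-05). Mthfd1l had 152, 156, 147 and 161 CPM in the controls and 111, 133, 127 and 112 CPM in the knockdowns (-0.35 ± 0.06, adjusted p = 0.000146). Both pairs of groups were apart, and the Mthfd1l knockdowns were more scattered, with replicates 2 and 3 above replicates 1 and 4.

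The 3 enzymes that make serine did not move together. Psat1, the aminotransferase of the second step, had 241, 222, 250 and 222 CPM in the controls and 184, 187, 191 and 208 CPM in the knockdowns, a fall of -0.28 ± 0.05 on the log2 scale (adjusted p = 0.000355). Phgdh, the first and committed enzyme, averaged 126 ± 3.01 CPM in controls against 120 ± 6.8 CPM in knockdowns, with overlapping groups (-0.07 ± 0.05, adjusted p = 0.232). Psph, the phosphatase of the last step, was at 19.2 ± 1.55 and 21.7 ± 1.73 CPM (0.18 ± 0.07, adjusted p = 0.061). Psph passed as higher with total count scaling (0.28, adjusted p = 0.00818), with upper quartile scaling (0.22, adjusted p = 0.0276) and when any 1 of 3 libraries was left out. These were replicates 1 and 3 of the controls (adjusted p = 0.0498 and 0.0433) and replicate 1 of the knockdowns (adjusted p = 0.0255). Whether the counting used strand is not given in the sources used here, so reads from genes that overlap cannot be told apart. Exons of Psph share 10.4% of their length with Cct6a on the other strand, and Cct6a fell (264 ± 15.1 and 206 ± 4.66 CPM, log2 fold change -0.36).

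**Figure D3:**
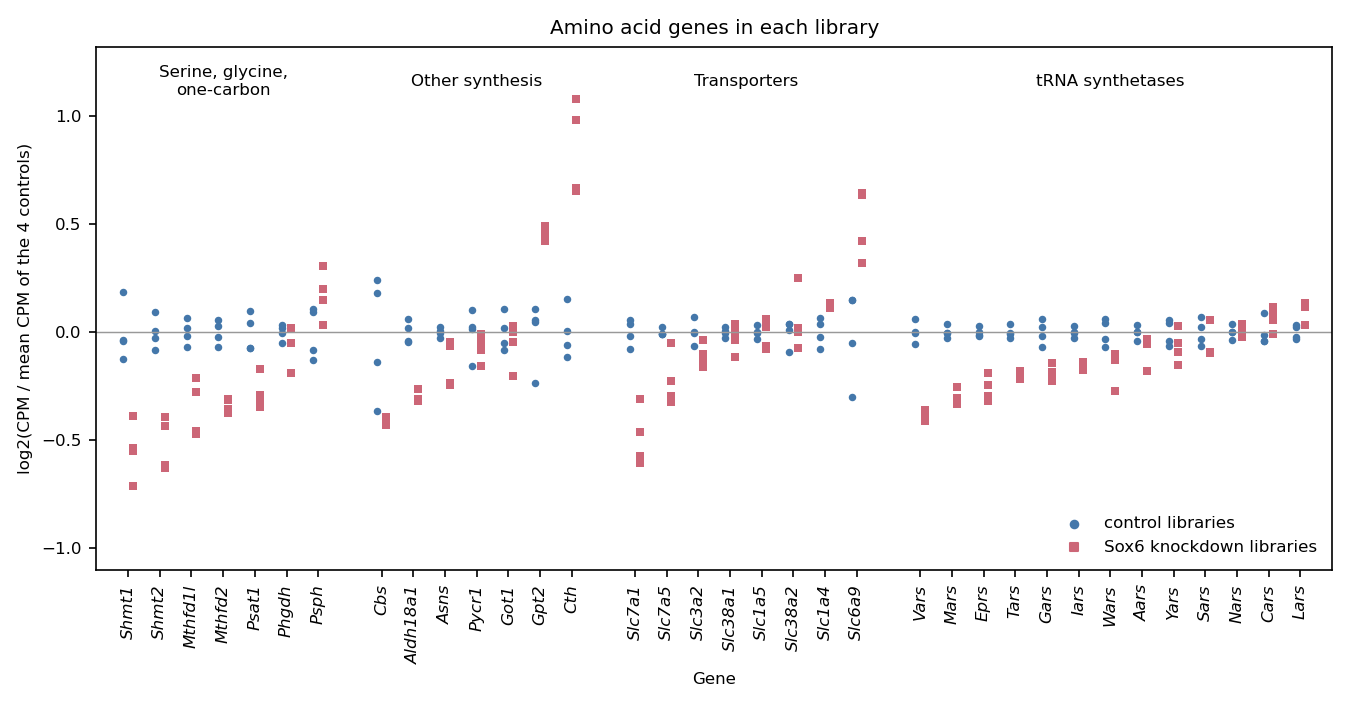
Each library's CPM for the 35 genes, as log2 of its ratio to the mean of the 4 controls, by role and ordered within a role by fold change. Circles are control and squares Sox6 knockdown libraries. The knockdown libraries of Shmt1, Shmt2, Slc7a1 and Vars lie wholly below the controls, and those of Cth, Gpt2 and Slc6a9 wholly above.

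The other one-carbon and serine genes, a list set out alongside the members, changed in both directions and by more. Of 20 genes 19 were tested, 6 rose and 7 fell, beside 25.4% and 26% of all tested genes. The median log2 fold change of the list was 0.01. Those with the smallest p-values were the genes that use the carbon unit for nucleotides. The cytosolic trifunctional enzyme Mthfd1 fell from 193 ± 13.1 to 102 ± 1.68 CPM (log2 fold change -0.92 ± 0.05, adjusted p = 1.73e-09). Thymidylate synthase, Tyms, fell from 43.5 ± 2.99 to 21.2 ± 1.03 CPM (-1.04 ± 0.06). For both genes the groups did not overlap. Aldh1l2, the mitochondrial enzyme that oxidises the folate-bound unit to carbon dioxide, named after its level was seen, had 82.8 to 87.5 CPM in the controls and 119 to 134 CPM in the knockdowns (0.56 ± 0.04, adjusted p = 1.06e-07). Its exons share 14.1% of their length with other genes.

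Proline synthesis begins with Aldh18a1, which turns glutamate into the proline precursor, and one route ends with Pycr1. Aldh18a1 had 265, 284, 264 and 276 CPM in the controls and 227, 218, 220 and 218 CPM in the knockdowns, tight and separate groups with a log2 fold change of -0.30 ± 0.04 (adjusted p = 1.52e-05). Pycr1 was much rarer, at 13.3, 11.1, 12.6 and 12.5 CPM and then 12.3, 12.0, 11.7 and 11.1 CPM. These groups overlapped (-0.07 ± 0.07, adjusted p = 0.429), and the sign turned with total count scaling (0.03). In a further list of 13 proline, ornithine and arginine genes, 11 were tested, 3 rose and 6 fell. Over all tested genes 25.4% rose and 26% fell. Ornithine decarboxylase, Odc1, which starts polyamine synthesis, fell from 198 ± 11 to 101 ± 14.2 CPM (-0.96 ± 0.08). Aldh4a1, which acts in proline breakdown, rose from 5.78 ± 0.966 to 12.2 ± 0.89 CPM (1.07 ± 0.11). Prodh, also of proline breakdown and named after its value was seen, went the other way. It fell from 5.64 ± 0.703 to 3.26 ± 0.345 CPM (-0.79 ± 0.12, edgeR adjusted p = 9.77e-05). The urea cycle lyase Asl rose from 23.9 ± 0.382 to 32.5 ± 1.99 CPM (0.45 ± 0.06). Exons of Aldh4a1 share 32.5% of their length with another gene on the same strand.

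The other synthesis enzymes held both the largest rise among the 35 genes and genes with no call. Cth, cystathionine gamma-lyase, which releases cysteine and is a source of hydrogen sulfide in vessels, had 4.78, 5.53, 4.60 and 4.99 CPM in the controls. In the knockdowns it had 7.82, 9.83, 10.5 and 7.91 CPM, so that all 4 were above every control (log2 fold change 0.86 ± 0.11, adjusted p = 2.09e-05, an increase of 81.3%). This rested on 862 and 1648 counts over the groups. Cbs, cystathionine beta-synthase, the enzyme one step before it, was the rarest of the 35 in CPM per kilobase of exon, with 50, 35, 44 and 49 counts in the controls and 34, 40, 30 and 38 counts in the knockdowns. In CPM each knockdown was below the lowest control, 0.766 to 0.785 against 0.800 to 1.22 CPM, yet the difference did not pass (-0.41 ± 0.22, adjusted p = 0.137).

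Gpt2, the mitochondrial alanine aminotransferase, had 71.2, 71.7, 58.7 and 74.4 CPM in the controls and 96.9, 95.3, 92.3 and 94.2 CPM in the knockdowns. It rose by 0.46 ± 0.06 on the log2 scale (adjusted p = 2.4e-05), with control replicate 3 low and the groups apart. Asns, asparagine synthetase, had 161, 164, 162 and 158 CPM in the controls and 136, 156, 154 and 137 CPM in the knockdowns. Its fall of -0.15 ± 0.05 (adjusted p = 0.0221) was lost without knockdown replicate 1 (adjusted p = 0.0687) or replicate 4 (adjusted p = 0.0746), the 2 lowest libraries, and with total count or upper quartile scaling (-0.05 and -0.11). Got1, the cytosolic aspartate aminotransferase, was at 45.1 ± 2.62 and 43.4 ± 3.03 CPM (-0.05 ± 0.06, adjusted p = 0.466).

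The whole promoters of 3 genes are printed because they belong to an enzyme whose promoter holds the core, the enzyme of most reads among those that fell by over 0.5, and an enzyme that rose. Each is the RefSeq window of GRCm38.p6 read along the gene, with any match to the core in capitals.
Asns, chr6:7693160-7693459, minus strand: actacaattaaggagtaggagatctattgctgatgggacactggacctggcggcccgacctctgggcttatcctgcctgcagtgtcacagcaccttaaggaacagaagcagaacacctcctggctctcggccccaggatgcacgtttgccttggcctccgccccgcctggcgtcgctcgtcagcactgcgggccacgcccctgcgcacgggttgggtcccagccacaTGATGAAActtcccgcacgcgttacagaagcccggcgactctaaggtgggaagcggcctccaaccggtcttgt
Shmt2, chr10:127522395-127522694, minus strand: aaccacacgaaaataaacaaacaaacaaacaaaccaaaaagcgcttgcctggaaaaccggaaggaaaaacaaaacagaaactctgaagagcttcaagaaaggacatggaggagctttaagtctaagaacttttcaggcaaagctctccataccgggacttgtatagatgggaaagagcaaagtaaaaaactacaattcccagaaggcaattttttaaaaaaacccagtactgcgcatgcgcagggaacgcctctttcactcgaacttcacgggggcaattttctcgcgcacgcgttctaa
Gpt2, chr8:85492326-85492625, plus strand: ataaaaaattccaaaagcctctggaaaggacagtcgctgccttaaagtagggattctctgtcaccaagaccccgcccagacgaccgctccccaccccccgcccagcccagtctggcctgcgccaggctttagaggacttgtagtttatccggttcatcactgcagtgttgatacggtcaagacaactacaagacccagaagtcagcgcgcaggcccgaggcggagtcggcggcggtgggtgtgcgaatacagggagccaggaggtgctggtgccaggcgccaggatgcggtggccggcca

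Of 15 further genes of glutamine, glutamate, alanine, aspartate and branched-chain amino acids, 7 rose and 3 fell, beside 25.4% and 26% of all tested genes. The median log2 fold change of the list was 0.15. Bcat2, the mitochondrial branched-chain aminotransferase, rose from 19.5 ± 1.43 to 27.3 ± 0.704 CPM (0.49 ± 0.06). Gpt, the cytosolic partner of Gpt2, rose from 11.2 ± 0.664 to 15.5 ± 0.325 CPM (0.47 ± 0.07). Bckdha, a subunit of the complex that breaks down branched-chain keto acids, rose from 18.8 ± 2.02 to 27.3 ± 1.93 CPM (0.54 ± 0.08). Exons of Bckdha share 61.7% of their length with B3gnt8 on the other strand, and those of Bcat2 share 15.9% with another gene.

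**Figure D4:**
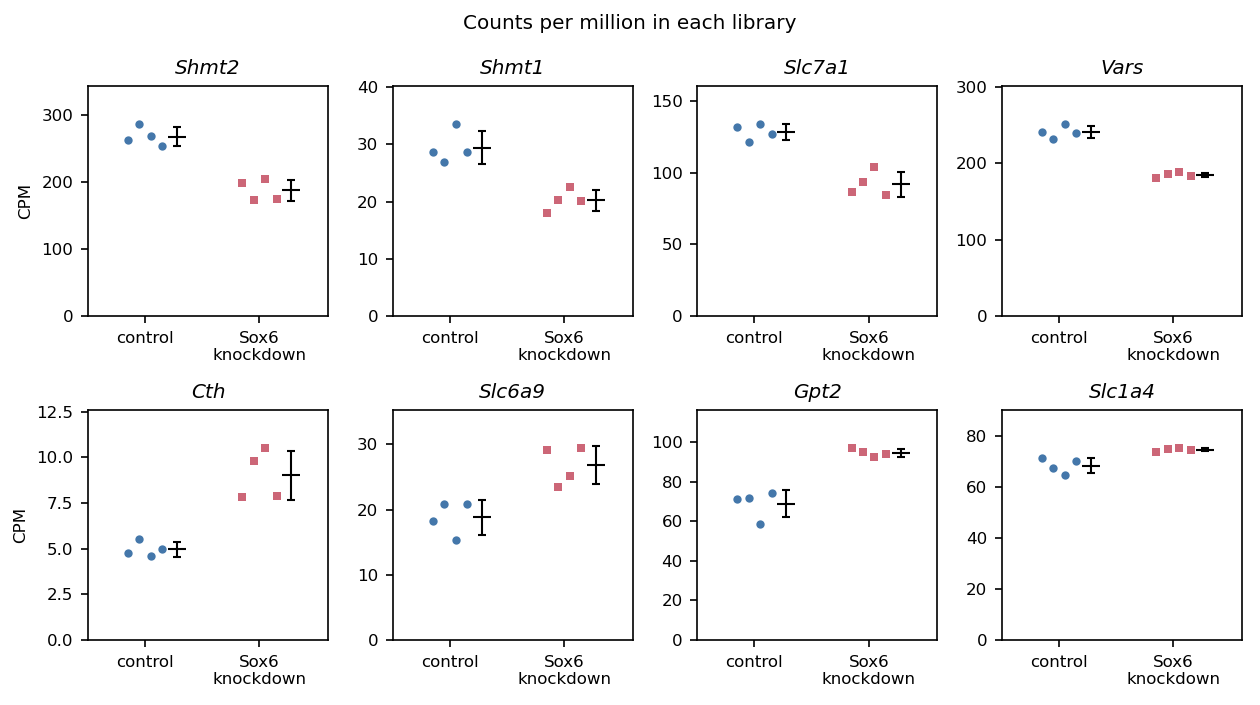
CPM (TMM-scaled, linear axes from 0) of 4 genes that fell and the 4 that rose, in each of the 4 control (circles) and 4 knockdown (squares) libraries, with mean and SD at the right of each group. In each panel no knockdown library overlaps the controls. Shmt2 goes from 268 to 188 CPM and Cth from 4.98 to 9.03 CPM.

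The transporters split, with 3 of 8 lower, 2 higher and 3 not called, and a median log2 fold change of -0.02. The share called was 62.5%, beside 51.5% over all tested genes (26% lower and 25.4% higher). With total count scaling 3 were higher and 1 lower, with a median of 0.08. The clearest fall was that of Slc7a1, a cationic amino acid transporter that brings in arginine and lysine. It had 132, 122, 134 and 127 CPM in the controls and 86.4, 93.5, 104 and 84.5 CPM in the knockdowns (-0.48 ± 0.06, adjusted p = 9.6e-06), separate groups. Slc7a2 and Slc7a3, cationic carriers of the wider list below, rose and are named after their values were seen. Slc7a2 went from 1470 ± 141 to 1670 ± 34.1 CPM (0.19 ± 0.06, adjusted p = 0.0156). The rarer Slc7a3 went from 0.344 ± 0.14 to 1.19 ± 0.248 CPM (1.77 ± 0.32, adjusted p = 0.000302). In the controls, Slc7a2 was at 161 ± 15.5 CPM per kilobase of exon and Slc7a1 at 11.2 ± 0.458. The heterodimer of the light chain LAT1, encoded by Slc7a5, and the heavy chain Slc3a2 exchanges large neutral amino acids such as leucine. Slc7a5 had 87.0, 85.1, 84.9 and 85.0 CPM and then 73.1, 82.7, 69.7 and 68.4 CPM (-0.22 ± 0.05, adjusted p = 0.00386). Slc3a2 had 246, 258, 235 and 245 CPM and then 240, 229, 225 and 220 CPM, overlapping groups whose difference of -0.11 ± 0.04 passed narrowly (adjusted p = 0.0453). The Slc3a2 call was lost without any 1 of control replicates 1 (adjusted p = 0.0855), 2 (adjusted p = 0.136) and 4 (adjusted p = 0.073) and of knockdown replicates 2 (adjusted p = 0.0735), 3 (adjusted p = 0.108) and 4 (adjusted p = 0.126). Per kilobase of exon, Slc3a2 was at 69.7 ± 2.7 CPM and Slc7a5 at 23.1 ± 0.275 CPM in the controls, so the heavy chain was the more abundant partner. Slc3a2 also pairs with other light chains.

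Slc6a9, the glycine transporter GlyT1, had 18.2, 20.9, 15.3 and 20.9 CPM in the controls and 29.2, 23.5, 25.2 and 29.4 CPM in the knockdowns. It rose by 0.51 ± 0.10 on the log2 scale (adjusted p = 0.000607), with no overlap of groups. Its exons share 30.2% of their length with other genes on the opposite strand, of which B4galt2 was at 8.1 ± 0.694 and 7.75 ± 0.339 CPM (-0.06, adjusted p = 0.58). Slc1a4, an exchanger of alanine, serine and cysteine, had 71.5, 67.3, 64.7 and 70.1 CPM and then 73.8, 74.8, 75.2 and 74.5 CPM. This rise was small (0.12 ± 0.04, adjusted p = 0.0239) and was lost without control replicate 2 (adjusted p = 0.0643) or 3 (adjusted p = 0.0724). It also failed without the filter on low counts (adjusted p = 0.0695), but was 0.23 and past the threshold with total count scaling. Slc1a5, the glutamine exchanger, was at 84.3 ± 1.55 and 83.4 ± 3.92 CPM. The sodium-coupled glutamine carriers Slc38a1 (263 ± 3.54 and 258 ± 11.7 CPM) and Slc38a2 (312 ± 13.3 and 325 ± 32.9 CPM) did not pass either, and the highest Slc38a2 value, 372 CPM, was in knockdown replicate 4.

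In a wider list of amino acid transporters more genes rose than fell, with 11 of 17 tested genes higher and 4 lower. Over all tested genes 25.4% were higher and 26% lower. The other 9 of the 26 listed were too low to test, and the median log2 fold change was 0.35. With total count scaling 11 were higher and 4 lower, with a median of 0.45, beside 36.7% higher and 18.9% lower over all tested genes. The lysosomal glutamine and asparagine carrier Slc38a7 rose from 26.2 ± 1.63 to 42.9 ± 0.95 CPM (0.71 ± 0.05), and the lysosomal proton-coupled carrier Slc36a1 from 26.9 ± 1.78 to 39.8 ± 2.03 CPM (0.56 ± 0.06). The cystine importer Slc7a11 fell from 29.1 ± 0.585 to 17.3 ± 1.79 CPM (-0.75 ± 0.07). Slc7a11 brings in the cystine that cells reduce to cysteine, whereas Cth, which rose, makes cysteine from cystathionine.

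Of the 13 synthetases 7 fell and 6 did not pass, and none rose, with a median log2 fold change of -0.15. The share called, 53.8%, is close to the 51.5% called over all tested genes. The 7 fallers stand beside 26% lower over all tested genes. None was higher at an unadjusted p under 0.05, nor with DESeq2 or limma-voom, but with total count scaling 4 were lower and 3 higher (median -0.05). The largest fall was that of valyl-tRNA synthetase. Vars had 241, 232, 251 and 240 CPM in the controls and 181, 186, 188 and 183 CPM in the knockdowns, 2 narrow groups that stood well apart (-0.38 ± 0.04, adjusted p = 1.11e-06). Mars, which charges the initiator methionine, had 137, 131, 133 and 133 CPM and then 107, 106, 108 and 112 CPM (-0.30 ± 0.04, adjusted p = 1.21e-05). Mars shares 1.99% of its exon length with Ddit3, the gene of the stress factor CHOP on the other strand, which rose from 31.8 ± 3.65 to 40.9 ± 2.42 CPM (0.37, adjusted p = 0.000859).

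Eprs, a fused enzyme that charges both glutamate and proline, had 294, 295, 303 and 297 CPM in the controls and 242, 251, 261 and 238 CPM in the knockdowns (-0.26 ± 0.04, adjusted p = 7.39e-05). Tars, the threonine enzyme, had 186, 188, 194 and 189 CPM and then 164, 163, 167 and 163 CPM (-0.20 ± 0.04, adjusted p = 0.000233). For both, the highest knockdown library was below the lowest control. The glycine enzyme Gars (340 ± 12.7 and 297 ± 8.08 CPM, -0.19 ± 0.04), the isoleucine enzyme Iars (218 ± 3.36 and 195 ± 2.09 CPM, -0.16 ± 0.03) and the tryptophan enzyme Wars (82.8 ± 3.52 and 74.4 ± 3.97 CPM, -0.15 ± 0.05, adjusted p = 0.016) fell by less. Leaving out control replicate 4 ended the Wars call (adjusted p = 0.0539), as did leaving out replicate 4 of the knockdowns (adjusted p = 0.0569). The most abundant of the synthetases not called, Nars, was at 382 ± 8.23 and 382 ± 7.6 CPM (log2 fold change 0.0011 ± 0.04). The remaining 5, Aars, Cars, Lars, Sars and Yars, lay between -0.08 and 0.08, and the 4 Lars values of the knockdowns were at or above 212 CPM, just over the highest control, also 212 CPM when rounded. Exons of Aars share 15.1% of their length with other genes.

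The remaining cytosolic synthetases and the scaffold proteins of the multi-synthetase complex showed a like pattern. Among these 11 genes 7 were lower and 1 higher, beside 26% and 25.4% of all tested genes. The median log2 fold change of the 11 was -0.20. Of these, the scaffold genes Eef1e1 (20.3 ± 1.15 and 14.3 ± 1.21 CPM, -0.50 ± 0.07) and Aimp2 (35.4 ± 1.78 and 26.8 ± 1.63 CPM, -0.40 ± 0.06) and the aspartate enzyme Dars (111 ± 0.982 and 91.8 ± 3.52 CPM, -0.27 ± 0.04) had the smallest p-values, and the scaffold gene Aimp1, named after its value was seen as the 1 gene that rose, went from 41.6 ± 1.69 to 46.1 ± 1.18 CPM (0.15 ± 0.05, adjusted p = 0.0141). Exons of Aimp2 share 29.4% of their length with other genes, among them Eif2ak1 on the other strand, which rose (0.14, adjusted p = 0.0261). Mitochondrial synthetases, which charge transfer RNA in the organelle, were mostly not called, with 4 of 17 higher, 1 lower and 12 not called. Their median log2 fold change was 0.00, and 29.4% of them were called, beside 51.5% of all tested genes. Iars2 fell from 105 ± 2.24 to 90.0 ± 0.819 CPM (-0.22 ± 0.04) and Hars2 rose from 28.7 ± 0.807 to 34.7 ± 1.43 CPM (0.27 ± 0.05). Exons of Iars2 share 24.2% of their length with other genes on the other strand. Lars2 had 83.8, 103, 56.7 and 53.9 CPM in the controls, a wide spread for so abundant a gene, and 140, 125, 162 and 135 CPM in the knockdowns (0.92 ± 0.16, adjusted p = 0.000231).

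**Figure D5:**
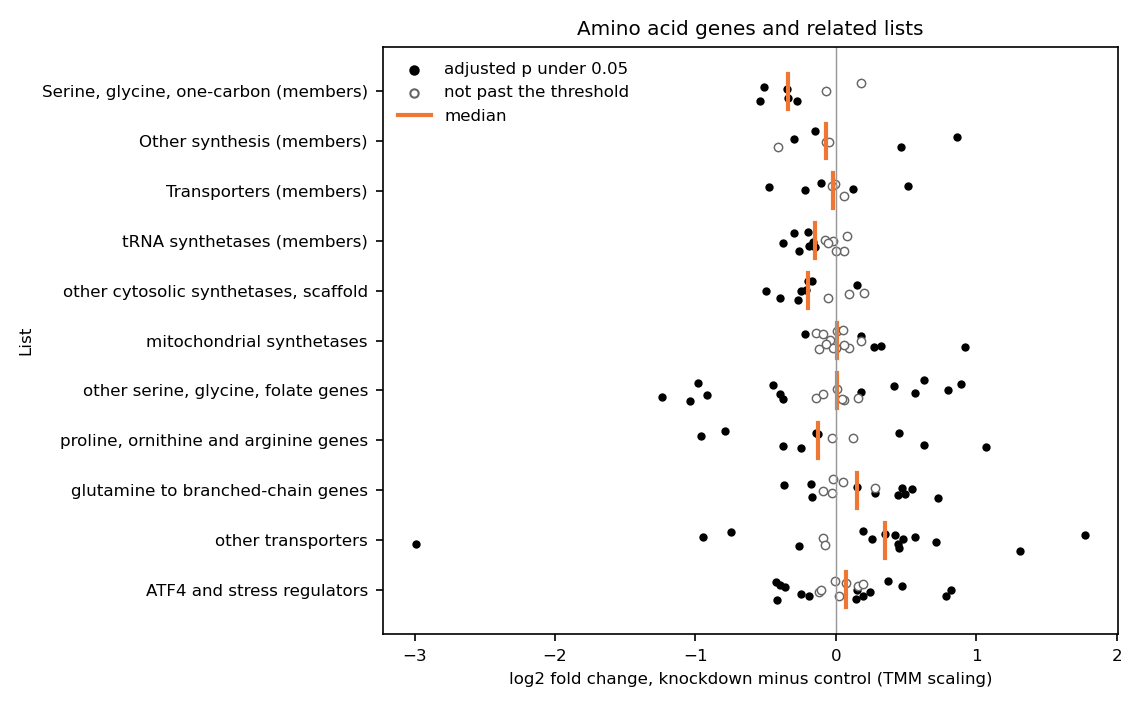
Log2 fold change (knockdown minus control, TMM scaling) of each tested gene by list, the 4 roles of the 35 genes first and the related lists after them. Filled points pass an edgeR adjusted p of 0.05 and orange lines are medians, which run from -0.34 for the serine, glycine and one-carbon members to 0.35 for the other transporters.

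Read against the response element, the 9 genes with a match held 4 that fell (Asns, Gars, Iars and Tars), 1 that rose (Slc1a4) and 4 that did not pass. Their log2 fold changes ran from -0.20 to 0.12, with a median of -0.08. Among the 16 genes with a promoter entry and no match, 9 fell and 2 rose, the values ran from -0.54 to 0.51, and the median was -0.27. The genes that changed most among those with an entry, such as Shmt1, Shmt2, Slc7a1, Gpt2 and Slc6a9, were all without the core in this window. Cth, Vars and Mars, which also changed, were among the genes with no entry. Whether ATF4 had a part in any of these changes was not tested. Atf4 itself had 452 to 491 CPM in the controls and 357 to 370 CPM in the knockdowns (-0.36 ± 0.04, adjusted p = 2.78e-06). Of 22 ATF4 and stress regulators 21 were tested, 8 rose and 6 fell. Over all tested genes 25.4% rose and 26% fell. Ddit4, an inhibitor of the growth kinase mTORC1, rose from 114 ± 6.62 to 202 ± 4.58 CPM (0.82 ± 0.05), and the stress cytokine Gdf15 rose from 12.9 ± 1.64 to 22.1 ± 1.57 CPM (0.78 ± 0.09). The protein level and activity of ATF4, which is controlled mainly by translation, were not measured here.

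Per kilobase of exon, levels in the controls spanned from Cbs at 0.138 ± 0.0266 CPM and Cth at 1.78 ± 0.144 CPM to Shmt2 at 86.2 ± 4.52, Nars at 87.7 ± 1.89 and Gars at 109 ± 4.06 CPM (SD, n = 4). Shmt2 and Nars did not differ beyond their spread in the controls, whereas in the knockdowns Shmt2 was at 60.4 ± 5.03 and Nars at 87.8 ± 1.75 CPM per kilobase. Mitochondrial Shmt2 was more abundant than cytosolic Shmt1, at 7.58 ± 0.722 CPM per kilobase. Of the serine synthesis enzymes, Phgdh (50.5 ± 1.21) and Psat1 (54.9 ± 3.31) were at close levels per kilobase and Psph was lower (4.43 ± 0.359). In the knockdowns the first pair was at 48.2 ± 2.74 and 45.3 ± 2.55. Exon length counts every annotated exon of a gene, so genes with long rare isoforms are understated.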

How the data were processed

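The authors deposited a table of raw counts per Ensembl gene for 8 libraries. The submitters' processing notes name mm10 and DESeq2, and no aligner or counter is given in the sources used here. Of counts from 1 to 40, 72% to 74.2% were even in each library, so a read pair may count as 2, and depth overstates the number of fragments. Symbols and exon lengths came from GENCODE M21, which matched 30008 of the 30660 identifiers.

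Counts were tested with edgeR 4.0.16 in R 4.3.3 (quasi-likelihood test, TMM scaling, filterByExpr with a minimum count of 10), with Benjamini-Hochberg adjustment over all 16150 genes tested and a threshold of 0.05. SE is that of the log2 fold change. The floor of 3 counts was 0.0607 to 0.0798 CPM, which covers counting error only. DESeq2 1.42.0 and limma 3.58.1 (voom), other scalings, filters and thresholds, halved counts, a replicate block and leaving out each library were the alternatives. Same-numbered libraries did not deviate together, so the replicate numbers were not used to pair them.

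All 35 genes are named. Of each related list, the genes named are up to 3 with the smallest p-values among those past the threshold, and others are named as chosen after their values were seen. One gene that this rule names and one promoter match are not reported here. The genes and lists were chosen with earlier results of these data known.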

Additional observations from a re-analysis of the deposited data

Results flagged for a closer look

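In 3 of 70 groups of 4 libraries (the 35 genes in each group), 1 library lay far from the other 3 relative to the group's range, where chance gives about 1 in 20 groups. Slc7a5 was at 87.0 CPM in control replicate 1, against 84.9 to 85.1 CPM in the other controls, a narrow range. Aars was at 267 CPM in knockdown replicate 4, against 291 to 296 CPM in the other knockdowns. Wars was at 68.5 CPM in the same library, against 75.8 to 77.1 CPM.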

How the results depend on the processing

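The counts of serine, glycine and one-carbon members called lower (5) and of other synthesis members called higher (2) were the same under all 18 alternatives. With total count scaling, 9 members were higher and 11 lower, among them 1 higher serine, glycine and one-carbon gene, 1 lower other synthesis gene, 1 lower transporter, and 3 higher and 4 lower synthetases. Upper quartile scaling gave 1 higher serine gene, 1 lower other synthesis gene and 1 higher synthetase. Requiring 1 CPM or more in 4 libraries gave 1 higher serine gene, no filter gave 1 higher transporter, and an adjusted p under 0.01 gave 1 lower other synthesis gene and 1 higher transporter. Leaving out 1 library gave 3 to 5 members higher and 14 to 17 lower, 0 to 1 serine genes higher, 1 to 2 other synthesis genes lower, and 1 to 2 transporters higher. Over all tested genes 8311 were called, and 6332 to 8971 over the alternatives.

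With the replicate block, 4 members were higher and 16 lower, and Slc3a2 was lost (adjusted p = 0.0595). Same-numbered libraries correlated at -0.0313 to 0.0568, so they share only a number, and 1 of 4 controls correlated best with its own number.

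The sign turned only for genes not called in the main test. With total count scaling it became positive for Phgdh (0.03), Pycr1 (0.03), Got1 (0.05), Slc1a5 (0.09), Slc38a1 (0.07), Aars (0.02), Sars (0.08) and Yars (0.04). With upper quartile scaling it did so for Slc1a5 (0.03), Slc38a1 (0.01) and Sars (0.02). Nars was at -0.0041 with DESeq2 or its size factors and -0.0032 without a filter. Leaving out 1 library gave -0.04 to 0.01 for Slc1a5, -0.05 to 0.0017 for Slc38a1, -0.01 to 0.1 for Slc38a2, -0.01 to 0.01 for Nars and -0.04 to 0.01 for Sars. The shared shift of 0.10 between scalings accounts for the first set by construction. For the other settings the cause was not tested.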
